A study of Homo sapiens with 12 samples.

Results

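Transcripts of the mitochondrial ribosomal protein (MRP) genes were followed across 8 RNA-sequencing libraries of WA26, a human embryonic stem cell (hESC) line. A gene was counted as a member when its symbol in the table of counts began with MRPL or MRPS and a number and its row was not a pseudogene. Of the 28278 genes in the table, 86 had such a symbol, 3 of them were pseudogenes, and 83 members were left. By symbol, 49 of them encode proteins of the large subunit and 29 of the small subunit, which makes 78 protein-coding members. The other 5 were antisense or divergent transcripts that carry the name of an MRP gene. The libraries fell into 4 groups of 2: WT hESCs at normal O2 (WT), UBQLN1 knockout hESCs at normal O2 (KO), KO hESCs in 5% O2, and KO hESCs given N-acetyl-L-cysteine (NAC), an antioxidant and precursor of glutathione. UBQLN1 encodes a shuttle protein that binds ubiquitinated proteins, and it was deleted with CRISPR-Cas9 in every KO group, so both treatments were measured in cells that carried the deletion. The labels give neither the O2 level of the NAC cultures nor how long either treatment lasted. The authors describe both treatments over repeated passages before RNA-seq, with DMSO as the control. Their text also names a shorter 5% O2 culture for RNA-seq. The sample titles do not mention DMSO. Between NAC and 5% O2, the treatment and any difference in its length can therefore not be told apart. Clones were picked for each genotype, and the clone behind each library is not named. The WT hESCs with NAC or in 5% O2 were not analysed here, so no effect of either treatment in WT cells is given.

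Mitochondria keep their own ribosome, which makes the respiratory chain proteins encoded in mitochondrial DNA. Its ribosomal RNAs are transcribed from mitochondrial DNA, whereas all of its proteins are encoded in the nucleus, made in the cytosol and imported. Some of these proteins have a bacterial homolog and others are found only in mitochondria. The large subunit forms peptide bonds and passes the nascent chain through an exit tunnel to the inner membrane, and the small subunit reads the messenger RNA. Symbols do not always give the place of a protein: MRPS30 and MRPS18A sit in the large subunit, and MRPS36 is a component of the α-ketoglutarate dehydrogenase complex.

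The libraries held between 31236968 and 41639350 counts, and the replicates of every group differed by more than sampling noise (chi-square per degree of freedom between 9.53 and 30.7). The labels do not say whether replicates came from separate cultures, so p-values measure the spread between these libraries, which may be technical. UBQLN1 was at 221 and 197 CPM (counts scaled to a common library size) in the WT libraries and between 42.3 and 62.4 CPM in the 6 KO libraries, and its log2 fold change between KO and WT was -2.29 (SE 0.12, adjusted p = 2.52e-06). The summed level of 10 hESC markers was 6757 and 6766 CPM in WT and 6516 and 6745 CPM in KO. It was 6411 and 6540 CPM in low oxygen and 5665 and 6128 CPM with NAC. These markers did not move together: DNMT3B was at 2617 and 2517 CPM in WT and at 1136 and 1418 CPM with NAC. DPPA4 went from 765 and 766 to 1135 and 1072 CPM, and ZFP42 from 288 and 317 to 427 and 445 CPM. SOX2, L1TD1, PRDM14 and NANOG were also lower in both NAC libraries than in WT, TDGF1 was higher, and POU5F1 and LIN28A overlapped. The first NAC library stood apart in markers of fibroblasts, whose summed level over 6 genes was 459 CPM there and between 147 and 218 CPM in the other 7 libraries. DCN was at 47.2 CPM and LUM at 3.86 CPM in that library, and both were at 0 in the other 7. The part of these transcripts in the results below was not tested, and results of the NAC cells are therefore also given without that library. In bulk RNA, fewer cells of a type and less RNA per cell cannot be told apart.

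MRP transcripts made up a larger share of all counts in the NAC libraries than in any other library. The share was 0.564% and 0.605% in WT, 0.530% and 0.551% in KO, 0.586% and 0.557% in 5% O2, and 0.695% and 0.702% with NAC. The KO libraries held the lowest shares, the WT and 5% O2 libraries overlapped, and both NAC libraries were above the other 6. The large subunit took 0.381% ± 0.0194 (SD, n = 2) of counts in WT, 0.352% ± 0.00777 in KO, 0.371% ± 0.0115 in 5% O2 and 0.453% ± 0.00710 with NAC. The small subunit took 0.204% ± 0.00957, 0.189% ± 0.00696, 0.2001% ± 0.00889 and 0.245% ± 0.00275 in the same order. The ratio of large to small subunit counts lay between 1.81 and 1.89 in all 8 libraries, and the ranges of all 4 groups overlapped. With 2 libraries per group an exact permutation test cannot reach 0.05, and none was run on these shares. The 77 proteins of the cytosolic ribosome, for comparison, took 8.32% of counts in WT, 7.17% in KO, 8.60% in 5% O2 and 10.5% with NAC.

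**Figure D1:**
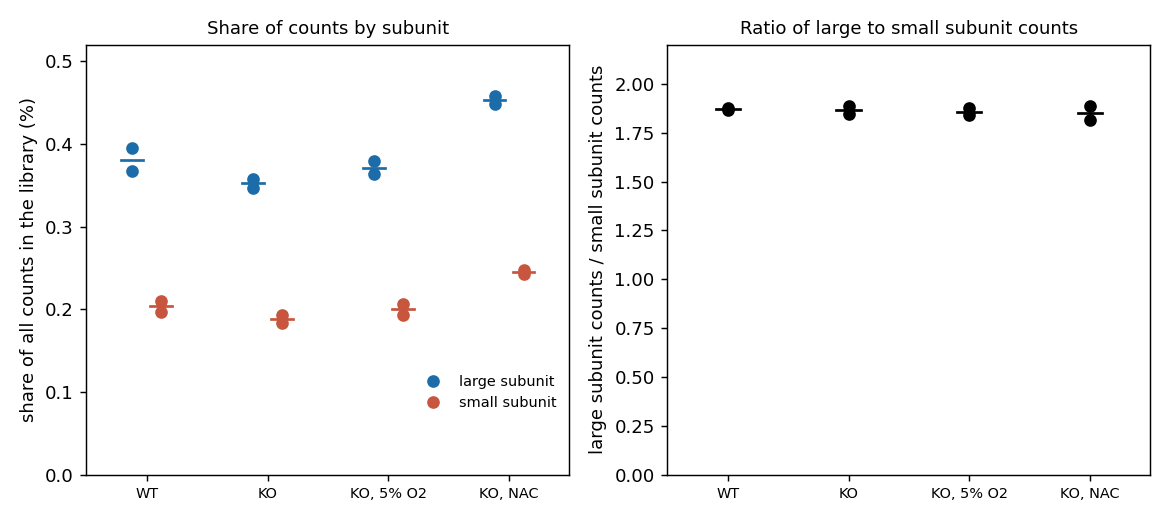
Share of all counts that came from large and small subunit MRP genes (left, percent) and the ratio of large to small subunit counts (right) in each library, with points for libraries and bars for the mean of 2. Both NAC libraries lie above all others in both subunits, and the ratio stays between 1.81 and 1.89.

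Per kilobase of transcript, the members differed widely in level. MRPS34 was highest in WT at 238 ± 24.9 CPM per kilobase (SD, n = 2), followed by MRPL12, which forms the flexible stalk that recruits translation factors, at 221 ± 33.4 and MRPL41 at 167 ± 38.8. Neighbours among these 3 did not differ beyond their spread. With NAC, MRPL12 (238 ± 17.2) and MRPS34 (234 ± 4.51) were again the highest. At the other end, MRPS24 held 3 and 6 counts in WT, none in KO, 1 and 3 in 5% O2 and 4 and 0 with NAC, and it was the 1 protein-coding member that did not pass the filter on low counts. Its exons share 23.2% of their bases with other genes, among them the read-through gene that joins it to URGCP. MRPS18B held between 9 and 38 counts per library, and 88% of its transcript's 31-base words also occur on alternate scaffolds of the genome. Reads there would count as multi-mapping if the genome used for mapping held those scaffolds. Reads that mapped to several places or overlapped several genes were left out of the deposited counts. The share was similar for MRPS36 (91.1% of words) and MRPL45 (85.6%), which held 365 to 947 and 837 to 1735 counts per library. The part of these scaffolds in the low counts of MRPS18B was not tested.

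The promoters of the members were examined because so many members moved together. Promoter windows from RefSeq (GRCh38.p14), from 250 bases before to 50 bases after the first listed start, were at hand for 69 of the 78 protein-coding members. MRPL2, MRPL10, MRPL13, MRPL15, MRPL21, MRPL23, MRPL35, MRPS28 and MRPS36 had none. Words known to be bound by SP1 and by ETS factors, NRF1 and YY1, regulators linked to nuclear genes for mitochondrial proteins, were searched on both strands. The ETS word CCGGAAG occurred in 42% of member promoters (29 of 69), against 17.5% of the 12107 promoters of genes that passed the filter and 10.7% of all 27305 promoters. The YY1 word AAGATGGC occurred in 29.0% (20 of 69), against 4.86% and 3.03%. The NRF1 word (GCGC, any 2 bases, GCGC) occurred in 13.0% (9 of 69), against 14.8% and 8.78%, and the SP1 word GGGCGG in 60.9%, against 69.0% and 44.6%. At least 1 of the ETS, NRF1 and YY1 words was present in 66.7% of member promoters, against 32.4% and 19.9%, and in 53.0% of those of cytosolic ribosomal proteins. The large and small subunit did not stand apart, with the ETS word in 40.5% and 44.4% and the YY1 word in 28.6% and 29.6%. The cytosolic ribosomal proteins had the ETS word in 34.8% and the YY1 word in 10.6% of 66 promoters. A word is a description of these letters and not evidence of binding.

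The ETS word sat close to the start: 21 of its 39 occurrences in member promoters (53.8%) lay in the last 50 bases before it, against 37.6% over promoters of genes that passed the filter and 35.4% over all promoters. Stretches of 80 bases before the start are shown for members with 1 such word, for 1 member with the NRF1 word and for 2 members with neither, each 5′ to 3′ on the strand of the gene, with the ETS or NRF1 word or its reverse complement in capitals.
MRPL33, chr2:27771639-27771718, plus strand: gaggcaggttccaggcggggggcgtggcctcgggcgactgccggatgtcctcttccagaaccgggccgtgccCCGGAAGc
MRPS23, chr17:57850045-57850124, minus strand: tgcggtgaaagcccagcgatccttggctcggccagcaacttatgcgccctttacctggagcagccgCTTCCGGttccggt
MRPS10, chr6:42217862-42217941, minus strand: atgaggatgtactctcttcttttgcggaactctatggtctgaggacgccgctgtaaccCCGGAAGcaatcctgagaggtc
MRPL40, chr22:19432465-19432544, plus strand: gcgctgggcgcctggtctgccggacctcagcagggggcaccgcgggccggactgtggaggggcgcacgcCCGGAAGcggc
MRPL54, chr19:3762602-3762681, plus strand: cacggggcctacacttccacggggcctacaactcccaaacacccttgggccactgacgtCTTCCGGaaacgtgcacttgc
MRPS26, chr20:3045972-3046051, plus strand: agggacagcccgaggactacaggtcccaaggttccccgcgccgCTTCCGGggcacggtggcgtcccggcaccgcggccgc
MRPS9 (NRF1 word), chr2:105037989-105038068, plus strand: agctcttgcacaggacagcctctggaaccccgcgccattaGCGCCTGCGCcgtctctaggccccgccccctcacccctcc
MRPL1 (no such word), chr4:77862750-77862829, plus strand: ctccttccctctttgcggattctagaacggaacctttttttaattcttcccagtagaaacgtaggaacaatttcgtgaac
MRPS25 (no such word), chr3:15065316-15065395, minus strand: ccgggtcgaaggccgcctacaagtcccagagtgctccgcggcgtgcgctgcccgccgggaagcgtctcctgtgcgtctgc

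The YY1 word lay on the other side of the start, with 15 of 21 occurrences (71.4%) in the first 50 bases after it, against 61.4% over promoters of genes that passed the filter, 51.3% over all promoters and 85.7% (6 of 7) over those of cytosolic ribosomal proteins. The word holds the letters ATG, and whether they are the start codon was not examined. Runs of 28 bases around it, with the word in capitals, are shown for 5 members.
MRPL38, chr17:75904861-75904888, minus strand: ggccggagggAAGATGGCggcgccctgg
MRPL42, chr12:93467512-93467539, plus strand: ggattgaaacAAGATGGCgggttcgtgg
MRPL46, chr15:88467363-88467390, minus strand: gggagaacgaAAGATGGCggcgcccgta
MRPS10, chr6:42217835-42217862, minus strand: cgggaccggcAAGATGGCggcgcggaca
MRPS7, chr17:75261888-75261915, plus strand: gtggccagccAAGATGGCtgcccccgca

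The comparison of NAC with KO addressed what the antioxidant did to transcripts in cells without UBQLN1, and it moved more members than any other. Of the 77 protein-coding members that passed the filter, 61 rose with NAC and 0 fell at an adjusted p under 0.05 (edgeR's quasi-likelihood test, Benjamini-Hochberg), and of all 15916 genes tested 23.8% rose and 20.8% fell. At an unadjusted p under 0.05, 62 members were higher and 0 were lower, against 27.2% and 24.1% of all genes. The median log2 fold change was 0.55 over the 49 large subunit members, of which 40 rose, and 0.54 over the 28 tested small subunit members, of which 21 rose, beside 0.02 over all genes. For 74 members both NAC libraries were above both KO libraries, against 36.2% of all genes. Without the first NAC library, 57 members rose, with medians of 0.55 in the large and 0.54 in the small subunit. The KO libraries are shared with the comparisons to WT and to 5% O2, so these are not independent of each other.

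Only MRPL13, MRPL48 and MRPS36 passed a log2 fold change of 1, beside 3.63% of all genes above it with an unadjusted p under 0.05. MRPL13 (chromosome 8 from 120380761 to 120445402, minus strand, hg38) encodes a core protein of the large subunit with a bacterial homolog. It was at 47.2 and 43.4 CPM in KO and at 110 and 117 CPM with NAC, a 2.51-fold rise (log2 fold change 1.33, SE 0.10, adjusted p = 1.28e-05). MRPL48 (chromosome 11 from 73787872 to 73865133, plus strand), a protein of the central protuberance, went from 17.2 and 17 CPM to 37.4 and 31.1 CPM (log2 fold change 1.01, SE 0.14, adjusted p = 0.000159). The groups did not overlap for either gene, and the NAC libraries were also above both WT libraries, where MRPL13 was at 55.8 and 54.8 CPM. MRPL39, found only in mitochondria, followed with 24.5 and 23.6 CPM in KO and 46.7 and 47.4 CPM with NAC (0.97, SE 0.10, adjusted p = 3.01e-05). MRPL42, of the same class, was at 94.0 and 86.9 CPM in KO and at 174 and 165 CPM with NAC (0.91, SE 0.09, adjusted p = 2.61e-05). For MRPL45, which anchors the ribosome to the inner membrane at the mouth of the exit tunnel, the KO values of 28.7 and 20.3 CPM and the NAC values of 42.2 and 51.5 CPM lay apart but spread more widely (0.93, SE 0.20, adjusted p = 0.00231).

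In the small subunit the highest fold changes were those of MRPS36, MRPS23, MRPS18B, MRPS35 and MRPS28. MRPS36 (chromosome 5 from 69217760 to 69230158, plus strand), the member that is not a ribosomal protein, was at 10.9 and 8.87 CPM in KO and at 24.7 and 22.8 CPM with NAC (1.26, SE 0.15, adjusted p = 6.11e-05). MRPS23 (chromosome 17 from 57834781 to 57850056, minus strand), found only in mitochondria, was at 69.1 and 75.1 CPM in KO and at 136 and 129 CPM with NAC (0.88, SE 0.11, adjusted p = 5.82e-05). Its promoter, printed above, carries the ETS word 14 bases before the start. MRPS35, a protein of the head of the small subunit, was at 69.9 and 71.2 CPM in KO and at 132 and 126 CPM with NAC (0.87, SE 0.09, adjusted p = 3.55e-05). NAC and KO libraries did not overlap for any of these 3 genes. MRPS28 rose by 0.87 (SE 0.16, adjusted p = 0.000887), from 36.8 and 39.6 CPM to 77.3 and 61.7 CPM. MRPS18B, at most 38 counts in any library, had a log2 fold change of 0.87 that did not pass (SE 0.61, adjusted p = 0.275).

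At the low end, on the counts as deposited, stood members at almost the same level in both groups. MRPL23, whose protein lines the opening of the exit tunnel, was at 64.5 and 39.9 CPM in KO and at 58.3 and 39.4 CPM with NAC (-0.09, SE 0.21, adjusted p = 0.756). Its first library was the higher in both groups, and the groups overlapped. MRPL4, whose bacterial homolog reaches into the exit tunnel, was at 127 and 137 CPM in KO and at 142 and 140 CPM with NAC (0.09, SE 0.09, adjusted p = 0.459). MRPL37 (0.10, SE 0.08, adjusted p = 0.35) was at 178 and 185 CPM in KO and at 193 and 196 CPM with NAC. These 2 genes had NAC above KO without overlap, by less than 0.15 on the log2 scale. MRPL38 (0.13, adjusted p = 0.346) and MRPL28 (0.14, adjusted p = 0.25) made up the rest of the lowest 5 in the large subunit. MRPS2 (chromosome 9 from 135499984 to 135504673, plus strand) was the 1 member with both NAC libraries, at 62.4 and 64.3 CPM, below both KO libraries, at 66.6 and 76.2 CPM, against 34.0% of all genes, and the difference did not pass (-0.17, SE 0.10, adjusted p = 0.187). MRPS25 (0.05), MRPS5 (0.11), MRPS34 (0.16) and MRPS17 (0.20) also lay low and did not pass.

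**Figure D2:**
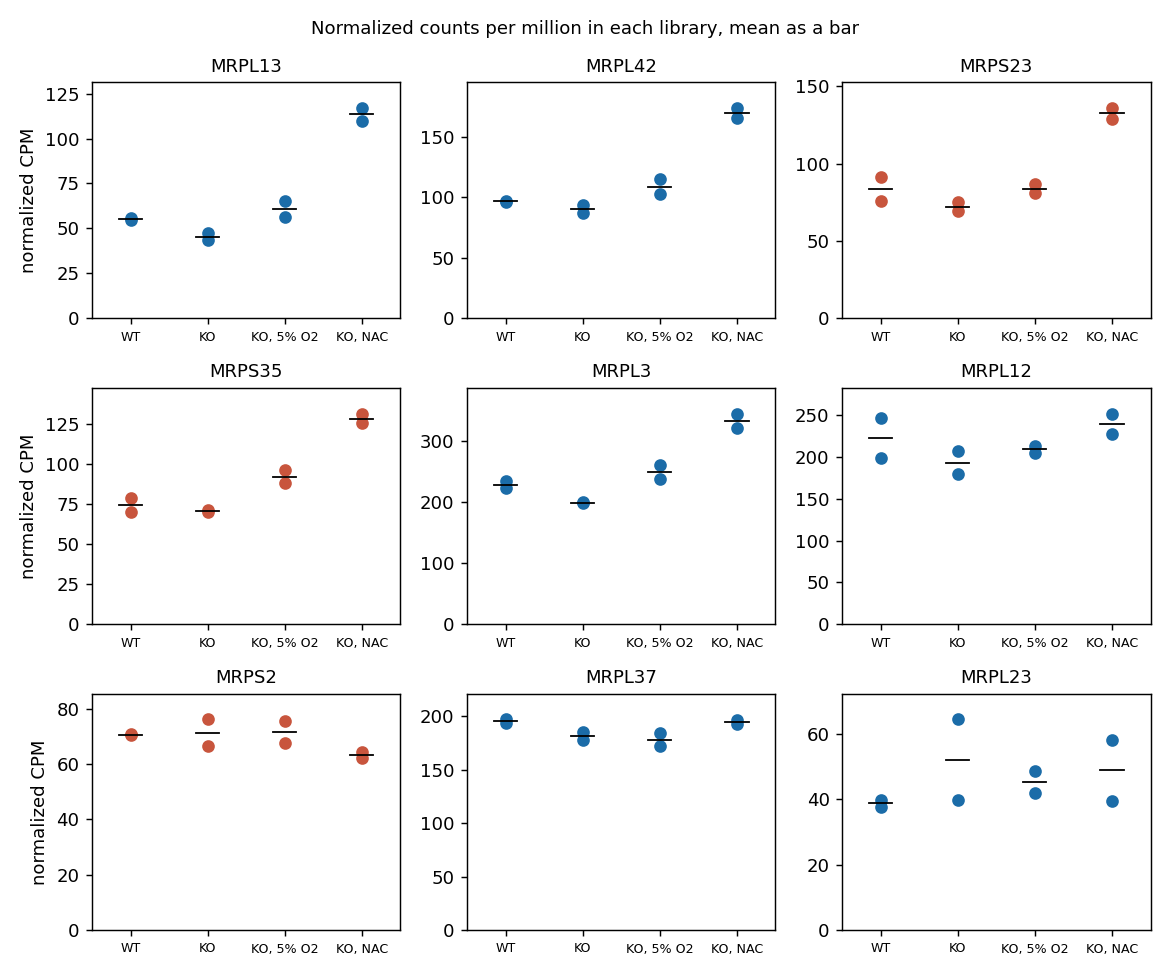
Normalized CPM of 9 MRP genes in each library (points, n = 2 per group) with the group mean as a bar, blue for large and red for small subunit, each axis starting at 0. MRPL13, MRPL42, MRPS23, MRPS35 and MRPL3 are highest in both NAC libraries, whereas MRPS2, MRPL37 and MRPL23 are not set apart from KO in the same way.

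By place in the ribosome, members of each of the 4 sites listed rose with NAC. All 4 stalk members rose: MRPL12 from 179 and 207 CPM to 252 and 228 CPM (0.31, SE 0.11, adjusted p = 0.0401), MRPL10, which anchors it, by 0.50 (adjusted p = 0.00233), MRPL11 by 0.49 (adjusted p = 0.00871) and MRPL53 by 0.41 (adjusted p = 0.0325). Other annotated genes share 69.5% of the exon bases of MRPL12 and 99.4% of those of MRPL53, and reads over shared bases were left out of the counts wherever the annotation used for counting held both genes. All 7 tested members of the small subunit head rose (median 0.64), among them MRPS7 by 0.64 (adjusted p = 0.000565). At the exit tunnel 6 of 8 rose and at the central protuberance 3 of 4. MRPL2 and MRPL3, which reach toward the peptidyl transferase centre, rose by 0.40 (adjusted p = 0.00436) and 0.74 (adjusted p = 4.29e-05), and MRPS12 of the decoding centre by 0.45 (adjusted p = 0.00359). MRPL3 was at 198 and 201 CPM in KO and at 346 and 322 CPM with NAC, without overlap. Many of these calls were lost once each library's dependence on the length and GC content of transcripts was taken out. In that fit 3 of 4 stalk members, 2 of 7 head members (MRPS7 and MRPS33), 0 of 8 exit tunnel members and 2 of 4 of the central protuberance rose, and MRPS9, MRPS14 and MRPS31 of the head were below 0 and did not pass.

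The paralogs MRPS18A, MRPS18B and MRPS18C occupy different sites. MRPS18A, in the large subunit, rose by 0.51 (SE 0.13, adjusted p = 0.00728), whereas MRPS18C, in the small subunit, was at 9.62 and 9.23 CPM in KO and at 11.9 and 11.5 CPM with NAC and did not pass (0.31, SE 0.16, adjusted p = 0.131). The difference between the paralogs was not tested. Other annotated genes share 50.9% of the exon bases of MRPS18A and 40.2% of those of MRPS18C, so the limit given for MRPL12 and MRPL53 holds here too. MRPS30, also in the large subunit, rose by 0.55 (SE 0.10, adjusted p = 0.000994). Of the members with a bacterial homolog, 36 of 45 rose, with a median log2 fold change of 0.49, and of those found only in mitochondria 24 of 31 rose, with a median of 0.57. With the length and GC dependence taken out these were 19 of 45 with a median of 0.21 and 16 of 31 with a median of 0.34. On the counts as deposited, the small subunit medians were 0.45 over 15 members with a bacterial homolog and 0.73 over 10 found only in mitochondria. Assigning members to subunits by structure rather than by symbol gave, on the same counts, medians of 0.55 for 51 large and 0.53 for 25 small subunit members.

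**Figure D3:**
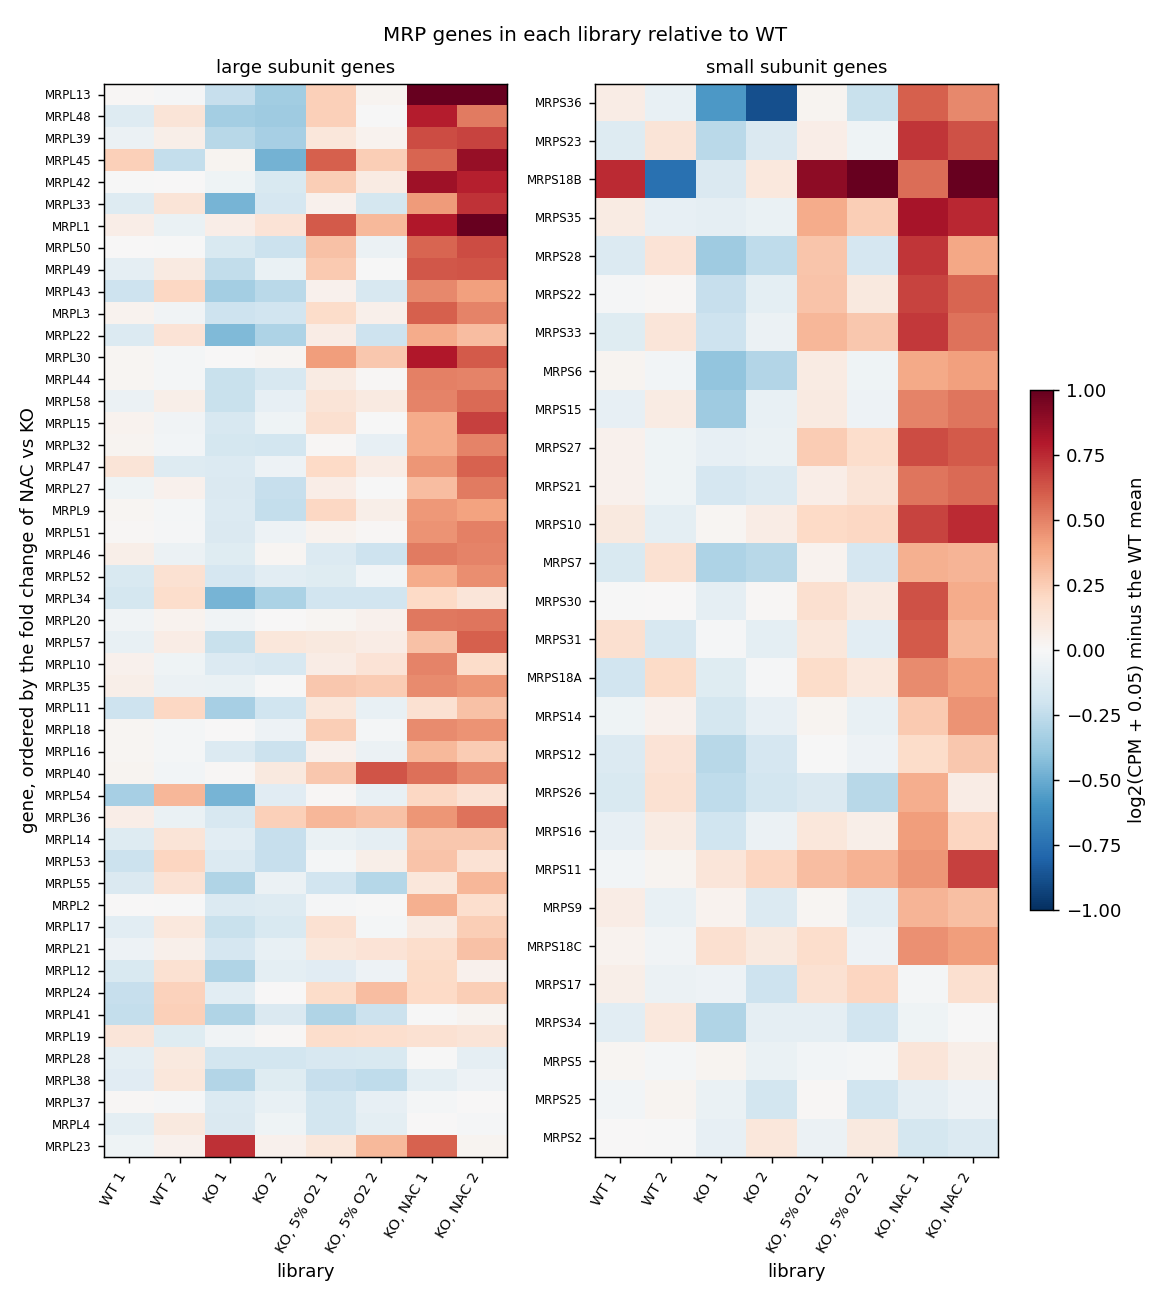
Log2(CPM + 0.05) of the 77 tested MRP genes (rows, by subunit symbol, ordered by the fold change of NAC vs KO) in each of 8 libraries (columns), minus the mean of the WT libraries, with colours ending at 1 and -1. The NAC columns are red for most genes in both subunits, the KO columns mostly pale blue, and MRPL23 is high in the first KO and the first NAC library.

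Fold changes with NAC were larger for transcripts of low GC content. Across the 77 members, the Spearman correlation of the NAC vs KO log2 fold change with the GC content of the transcript was -0.53 (-0.67 over the large and -0.33 over the small subunit), and across all genes it was -0.49. Genes are not independent replicates and share the libraries, so these are descriptions. The 26 members of lowest GC content (34.8% to 44.6%) had a median log2 fold change of 0.73 and 23 of them rose, and the 25 of highest GC content (52.3% to 66.7%) had a median of 0.41 and 15 of them rose. Relative to the mean of WT, the log2 level of members correlated with GC content at -0.54 and -0.58 in the NAC libraries, at -0.57 and -0.22 in 5% O2, and at -0.21 and 0.03 in KO. The WT libraries, set against their own mean, were at -0.56 and 0.56, which mirror each other by construction, so replicates of 1 group also differed along GC content.

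With each library's smooth dependence on the length and GC content of transcripts taken out, 35 members rose and 2 fell with NAC, against 13.8% and 11.8% of all genes, and 29 members rose in both fits. The median fell to 0.27 in the large and 0.19 in the small subunit, and 66 of 77 log2 fold changes were above 0. MRPL42 (0.98, adjusted p = 0.000114), MRPS23 (0.92, adjusted p = 0.000448), MRPL48 (0.65, adjusted p = 0.00365) and MRPL13 (0.45, adjusted p = 0.00397) still rose. For MRPL42 that fit used a canonical transcript of 15557 bases, beside a median of 1260 over the members. Whether its value depends on that transcript was not tested. MRPL39 (0.14, adjusted p = 0.301), MRPS35 (0.14, adjusted p = 0.207) and MRPS36 (0.10, adjusted p = 0.629) no longer passed, nor did MRPL45, MRPS28, MRPL3 and MRPS30, with log2 fold changes from 0.13 to 0.44. MRPS18C (-0.68, adjusted p = 0.00542) and MRPL47 (-0.36, adjusted p = 0.0238) fell in that fit, both with a transcript low in GC. In all, 11 members changed sign, and 6 of them had risen in the first fit. MRPL12, at 64.6% GC, rose by 0.49 (adjusted p = 0.0031). Some members that lay lowest on the counts as deposited rose in that fit: MRPL4 (0.26, adjusted p = 0.0186), MRPL28 (0.23, adjusted p = 0.0385), MRPL38 (0.27, adjusted p = 0.0255) and MRPS34 (0.34, adjusted p = 0.0112). MRPL23, MRPL37, MRPS2, MRPS5, MRPS17 and MRPS25 did not pass there either. Among the members the relation to GC content turned round in this fit, with a Spearman correlation of 0.46: the 26 of lowest GC content had a median of 0.10, with 5 higher and 2 lower, and the 25 of highest GC content a median of 0.39, with 21 higher.

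**Figure D4:**
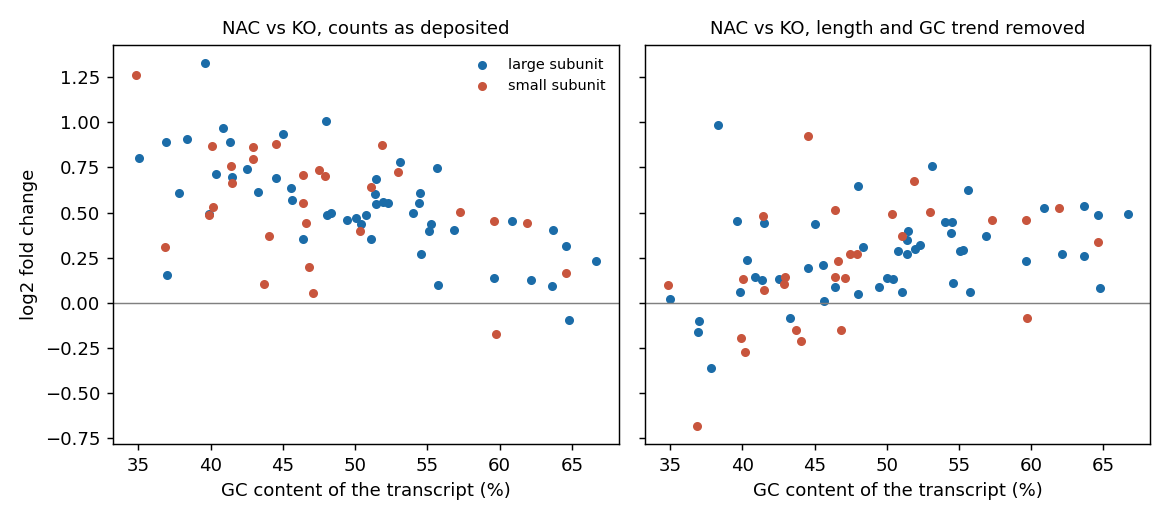
Log2 fold change of NAC vs KO against the GC content of the transcript (percent) for 77 MRP genes, from the counts as deposited (left) and after removal of each library's trend on length and GC content (right), blue for large and red for small subunit. The slope is downward at left (Spearman correlation -0.53) and upward at right (0.46), where 66 of 77 genes lie above 0 and MRPS18C is lowest at -0.68.

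Members with and without a promoter word had medians close to each other. With the ETS word the median log2 fold change of NAC vs KO was 0.55 and 24 of 29 rose, and without it the median was 0.50 and 29 of 39 rose. With the YY1 word the median was 0.61 and 17 of 19 tested rose, and without it 0.49 and 36 of 49. All 9 members with the NRF1 word rose, with a median of 0.44, and 44 of 59 without it, with a median of 0.55. With the length and GC dependence taken out, 18 rose and 2 fell of the 29 with the ETS word (median 0.27) and 14 rose of the 39 without it (median 0.24). For the NRF1 word, 4 of 9 with it rose (median 0.31), and 28 rose and 2 fell of 59 without it (median 0.26). For the YY1 word, 8 rose and 1 fell of 19 with it (median 0.27), and 24 rose and 1 fell of 49 without it (median 0.26). MRPL1, whose 80 bases hold neither the ETS nor the NRF1 word, rose by 0.89 (SE 0.14, adjusted p = 0.000354) on the counts as deposited and stood at -0.16 (adjusted p = 0.414) with that dependence taken out.

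The comparison of 5% O2 with KO addressed what low oxygen did in cells without UBQLN1. Of 77 members, 6 rose and 0 fell, against 3.68% and 4.13% of all genes. At an unadjusted p under 0.05, 29 members were higher and 0 lower, against 12.4% of all genes in each direction. The median log2 fold change was 0.24 in the large and 0.21 in the small subunit, beside -0.00 over all genes, and 68 members were above 0, against 49.9% of all genes. Both 5% O2 libraries lay above both KO libraries for 57 members, against 30.7% of all genes.

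The 6 that rose were MRPL13, MRPL39, MRPL3, MRPS36, MRPS35 and MRPS6. MRPL13 was at 65.2 and 56.4 CPM in 5% O2 and at 47.2 and 43.4 CPM in KO (0.43, SE 0.10, adjusted p = 0.0298). MRPL39 was at 32.1 and 30.4 CPM in 5% O2, against 24.5 and 23.6 CPM in KO (0.38, SE 0.10, adjusted p = 0.044). MRPL3 was at 261 and 238 CPM, against 198 and 201 CPM in KO (0.32, SE 0.08, adjusted p = 0.0415). For these 3 genes of the large subunit the libraries in 5% O2 were above those in KO and below those with NAC. In the small subunit MRPS36 was at 16.6 and 14 CPM in 5% O2 (0.63, SE 0.15, adjusted p = 0.0329) and MRPS35 at 96.4 and 88.2 CPM (0.39, SE 0.09, adjusted p = 0.0319). MRPS6, a protein of the platform, was at 52.1 and 47.6 CPM in 5% O2 and at 37.3 and 40.2 CPM in KO (0.36, SE 0.10, adjusted p = 0.0409). Both of its WT libraries, at 50.05 and 48.2 CPM, lay within the range of 5% O2.

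Higher fold changes than some of these did not pass: MRPS18B at 1.25 (SE 0.60, adjusted p = 0.224), MRPL45 at 0.63 (adjusted p = 0.0707), MRPL48 at 0.47 (adjusted p = 0.0639), MRPS33 at 0.43 (adjusted p = 0.0529) and MRPL40 at 0.41 (adjusted p = 0.0922). The lowest were MRPL23 at -0.20 (adjusted p = 0.596) and MRPL46 at -0.12 (adjusted p = 0.537), whose 22.1 and 21 CPM in 5% O2 lay below its 22.3 and 24.6 CPM in KO. The count of 6 rested on single libraries: it was 0 without either KO library or without the first 5% O2 library, 1 without the second 5% O2 library or the second WT library, 2 without the first WT library, and 19 without either NAC library. With the length and GC dependence taken out 1 member rose, MRPL42 (0.37, adjusted p = 0.0471), and 0 fell, against 1.04% and 0.396% of all genes, and the medians were 0.06 and 0.09. The call of MRPL42 used the transcript of 15557 bases given above.

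The comparison of KO with WT addressed what the loss of UBQLN1 did at normal O2. Of 77 members 0 were higher and 1, MRPS36, was lower, against 1.34% and 0.622% of all genes. At an unadjusted p under 0.05, 0 were higher and 12 were lower, against 9.50% and 8.12% of all genes. Most log2 fold changes were small and below 0: 68 of 77 members were negative, against 50.4% of all genes, with a median of -0.17 in the large and -0.13 in the small subunit. Both KO libraries lay below both WT libraries for 37 members and above them for 4, against 27.0% and 27.7% of all genes. With the dependence on length and GC content taken out, 0 members passed in either direction, against 0.672% of all genes higher and 0.603% lower, the medians were -0.06 and -0.03, and 26 of 77 were above 0.

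MRPS36 was at 17.2 and 15.5 CPM in WT and at 10.9 and 8.87 CPM in KO, without overlap (-0.72, SE 0.15, adjusted p = 0.0357). The call was lost without any 1 of the WT, KO or 5% O2 libraries, where the adjusted p lay between 0.0646 and 0.303, and with the trend removed (-0.46, adjusted p = 0.133). MRPL34, a small protein with a bacterial homolog, had the lowest value in the large subunit, with 75.4 and 95.8 CPM in WT and 61.6 and 68.2 CPM in KO (-0.40, SE 0.12, adjusted p = 0.103). MRPL22 (-0.38, adjusted p = 0.141), MRPL48 (-0.35, adjusted p = 0.223), MRPL54 (-0.32, adjusted p = 0.395) and MRPL43 (-0.32, adjusted p = 0.225) came next. MRPS6 (-0.34, adjusted p = 0.0954), MRPS28 (-0.31, adjusted p = 0.33), MRPS7 (-0.30, adjusted p = 0.18) and MRPS12 (-0.23, adjusted p = 0.269) were the next lowest in the small subunit, and none of them passed. At the other end MRPL23 was at 37.7 and 39.9 CPM in WT and at 64.5 and 39.9 CPM in KO (0.43, SE 0.21, adjusted p = 0.319), a difference carried by the first KO library. MRPS11 was at 34.6 and 35.9 CPM in WT and at 38.3 and 40.8 CPM in KO (0.17, SE 0.11, adjusted p = 0.444), apart but not past the threshold.

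**Figure D5:**
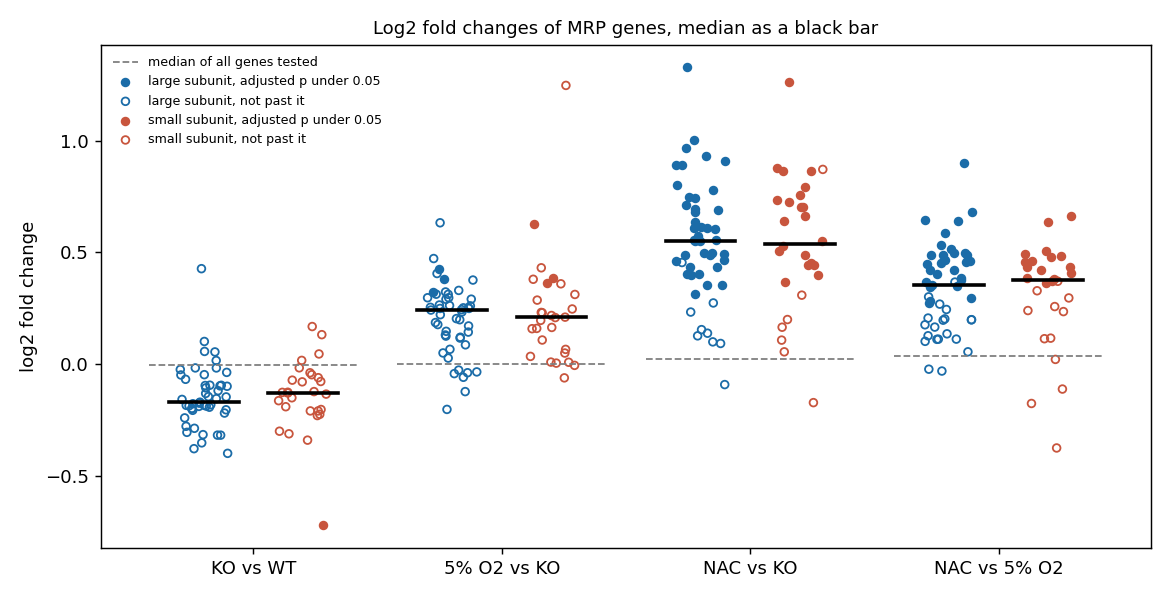
Log2 fold change of each of 77 MRP genes in the 4 comparisons (points, blue for large and red for small subunit, filled where the adjusted p is under 0.05), with the median of each subunit as a black bar and that of all genes as a dashed line. The medians of both subunits lie below that line for KO vs WT and above it elsewhere, highest for NAC vs KO at 0.55 and 0.54.

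NAC was also set directly against 5% O2 within KO cells. Of 77 members, 45 were higher with NAC and 0 lower, against 15.5% and 13.6% of all genes, with 29 in the large and 16 in the small subunit. Without the first NAC library the count was 36, and without the second 5% O2 library it was 10. The median difference was 0.36 in the large and 0.38 in the small subunit, beside 0.04 over all genes, and both NAC libraries were above both 5% O2 libraries for 67 members, against 33.4% of all genes. MRPL13 differed most (0.90, SE 0.10, adjusted p = 0.000285). MRPL46, from the central protuberance, was at 34.8 and 34.2 CPM with NAC and at 22.1 and 21 CPM in 5% O2 (0.68, SE 0.11, adjusted p = 0.00146), and its KO values of 22.3 and 24.6 CPM lay beside those of 5% O2. MRPS23 differed by 0.66 (SE 0.11, adjusted p = 0.00128) and MRPL42 by 0.65 (SE 0.09, adjusted p = 0.000729). None of the 4 stalk members passed, with log2 differences from 0.20 to 0.24, and 6 of 7 head members passed. With the trend removed 1 stalk member, MRPL12 (0.32, adjusted p = 0.0325), and 0 head members passed, and the difference between the sites was not tested. On the counts as deposited, MRPL19 (-0.03), MRPL24 (-0.02), MRPS17 (-0.11) and MRPS2 (-0.18, adjusted p = 0.209) were lowest beside MRPS18B (-0.38, SE 0.58, adjusted p = 0.671). With the trend removed, 21 of all members were higher and 0 lower, against 8.21% and 7.62% of all genes, and the medians were 0.23 and 0.14.

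Ribosomal proteins of the mitochondrion that carry no MRP symbol were read alongside. With NAC, DAP3, a GTP-binding protein of the small subunit, rose by 0.75 (adjusted p = 7.79e-05), PTCD3 by 0.69 (adjusted p = 0.000137) and CHCHD1 by 0.69 (adjusted p = 0.000123), whereas AURKAIP1 was at 0.00 (adjusted p = 0.993) and GADD45GIP1 at 0.13 (adjusted p = 0.362). None of the 5 passed in 5% O2 or between KO and WT. With the length and GC dependence taken out, 3 of the 5 rose with NAC. Of 25 factors that assemble the mitochondrial ribosome, 10 rose and 1 fell with NAC (median 0.30), 1 rose in 5% O2 (median 0.06), and 0 passed between KO and WT (median -0.03). FASTKD2, an RNA-binding protein needed for the large subunit, was at 75.6 and 66.8 CPM in KO and at 136 and 147 CPM with NAC (0.99, adjusted p = 2.93e-05). MTG2, a GTPase of large subunit assembly, fell from 22.6 and 19.5 CPM to 14.3 and 12.1 CPM (-0.68, adjusted p = 0.0022). C1QBP was the assembly gene that rose in 5% O2 (0.50, adjusted p = 0.0123). With that dependence taken out 11 assembly factors rose and 0 fell with NAC (median 0.28), FASTKD2 still rose (0.89, adjusted p = 0.000186), and the calls of MTG2 (-0.26, adjusted p = 0.218) and of C1QBP in 5% O2 (0.34, adjusted p = 0.0658) were lost. Of 14 translation factors and partners of mitochondrial messenger RNA, 10 rose with NAC (median 0.50) and 0 passed in 5% O2 (median 0.16). SLIRP, which binds these messenger RNAs with LRPPRC, rose by 0.91 (adjusted p = 4.3e-05) and the release factor MTRF1 by 1.16 (adjusted p = 0.000519), whereas the elongation factor TUFM stood at 0.07 (adjusted p = 0.459). With the dependence taken out 6 of the 14 rose and 1 fell (median 0.27), SLIRP still rose (0.41, adjusted p = 0.0456), MTRF1 no longer passed (0.40, adjusted p = 0.171), and TUFM passed (0.20, adjusted p = 0.0347).

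The same was counted for other large nuclear gene groups. Of the 77 cytosolic ribosomal proteins, 68 rose with NAC (median 0.67), 38 rose in 5% O2 (median 0.33) and 1 was lower in KO than in WT (median -0.22). Of 37 complex I subunits, whose assembly needs proteins made on the mitochondrial ribosome, 28 rose with NAC (median 0.69), 5 rose in 5% O2 (median 0.23) and 0 passed between KO and WT (median -0.14). With the dependence on length and GC content taken out, 46 cytosolic ribosomal proteins rose and 2 fell with NAC (median 0.36), and 19 complex I subunits rose and 0 fell (median 0.28). In 5% O2 that fit left 3 cytosolic ribosomal proteins higher and 1 lower (median 0.17) and 1 complex I subunit higher (median 0.12).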

How the data were processed

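RNA was sequenced from the 8 libraries described (TruSeq RNA kit, total RNA). The authors checked reads with FastQC 0.11.9, trimmed them with trim-galore, mapped them to hg38 (HISAT2) and assigned them to genes (featureCounts, default settings, no strand). Over shared bases, a gene and its antisense partner can therefore not be told apart. The annotation used is not given in the sources used here. The deposited values are whole counts without normalization. The 4 WT libraries with NAC or 5% O2 were not analysed here.

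Low genes were removed (filterByExpr, minimum count 10) and libraries scaled by TMM, also for CPM. The two-sided quasi-likelihood test (edgeR 4.0.16, R 4.3.3) used 1 fit of 8 libraries in 4 groups with 4 residual degrees of freedom, a biological coefficient of variation of 13.7% and Benjamini-Hochberg adjustment over 15916 genes. The SE of a log2 fold change is its size over the square root of its F statistic. Trends on the length and GC content of canonical transcripts, known for 96.0% of tested genes and all 78 members, were fitted with mgcv 1.9.3. Coordinates and overlaps are from the GENCODE annotation of hg38. Named are the 5 highest and 5 lowest members per subunit and comparison, members of set sites in the ribosome, and the 2 highest or lowest genes of other lists. Members, lists and alternatives (DESeq2 1.42.0, other normalizations, filters and fits, leaving out each library) were chosen with earlier results of these data known. The computations were tested on simulated counts.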

Additional observations from a re-analysis of the deposited data

How the results depend on the processing

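With 2 libraries per group, most counts of members that passed depended on the fit, whereas the sign of each subunit median did not change under any setting tried. Main counts were 61 higher for NAC vs KO, 45 higher for NAC vs 5% O2, 6 higher for 5% O2 vs KO and 1 lower for KO vs WT. Leaving out each library gave 47 to 62, 10 to 43, 0 to 19 and 0 to 3 in that order, and where 1 library stayed in a group it was assumed to vary like the others. KO vs WT had 0 lower without any 1 of the WT, KO and 5% O2 libraries and 3 without either NAC library. Large subunit medians then lay between 0.51 and 0.58, 0.31 and 0.42, 0.17 and 0.27, and -0.17 and -0.092, and small subunit medians between 0.50 and 0.63, 0.30 and 0.43, 0.14 and 0.25, and -0.17 and -0.087.

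For 5% O2 vs KO, DESeq2 gave 15 higher, beside 1081 of all 15916 genes tested, and upper quartile normalization 11, beside 672. No filter on low counts gave 16, beside 1039 of 21141 genes, and a fit of only the libraries compared 20, beside 1466 of 15384. For KO vs WT, DESeq2 gave 3 lower, beside 315 of 15916 genes. No filter gave 3 lower and 1 higher, beside 470 and 782 of 21141. Only the libraries compared gave 26 for NAC vs 5% O2, beside 1452 of 15226 genes, with a large subunit median of 0.32. The large subunit median of NAC vs KO was 0.52 with DESeq2 and with RLE normalization and 0.50 without the 8 members with copies on alternate scaffolds, and that of KO vs WT was -0.20 with upper quartile normalization and -0.16 by structure. Without those copies, or by structure, KO vs WT had 0 lower. An absolute log2 fold change over 1 with an unadjusted p under 0.05 left 3 higher for NAC vs KO and 0 in the other comparisons.

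The length and GC trend removed gave 35 higher and 2 lower for NAC vs KO, 21 higher for NAC vs 5% O2, 1 higher for 5% O2 vs KO and 0 lower for KO vs WT, with large subunit medians of 0.27, 0.23, 0.055 and -0.063 and small subunit medians of 0.19, 0.14, 0.086 and -0.034. Among named genes past the threshold in either fit, those that turned in sign in NAC vs KO included MRPS18C (-0.68), MRPL47 (-0.36), MRPL1 (-0.16) and POLG (0.19). The head members MRPS9 (-0.21), MRPS14 (-0.19) and MRPS31 (-0.27) also turned there. In NAC vs 5% O2 those that turned included MRPS36 (-0.055), MRPL47 (-0.20), MRPL1 (-0.0997), MRPS14 (-0.019) and MRPS31 (-0.0056). Over all genes the split in 5% O2 vs KO went from 586 higher and 657 lower to 165 and 63, and in KO vs WT from 213 and 99 to 107 and 96.

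Replicate numbers were not used to pair the samples in the main fit. Over all genes tested, deviations of same-numbered libraries correlated between -0.02 and 0.08 over 6 pairs of groups. Over the members these correlations lay between -0.27 (WT and NAC) and 0.31 (KO and NAC). With 2 libraries per group they cannot show whether same-numbered libraries share a clone. With a replicate block the count for 5% O2 vs KO was 10, beside 676 of all 15916 genes, and no other count of members moved by over 1.5 times. The block together with the trend removed gave 33 higher and 2 lower, 18, 0 and 0, large subunit medians of 0.27, 0.22, 0.056 and -0.063, small subunit medians of 0.19, 0.14, 0.086 and -0.034, and, in NAC vs KO, MRPS18C at -0.68, MRPL47 at -0.36, MRPL1 at -0.16 and POLG at 0.19, and in NAC vs 5% O2 MRPS36 at -0.056, MRPL47 at -0.20 and MRPL1 at -0.11.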

Other observations

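Of 9 genes for mitochondrial transcription and upkeep of mitochondrial DNA, 6 rose and 3 fell with NAC, and 1 rose and 0 fell with the dependence on length and GC content taken out. TWNK, the mitochondrial DNA helicase, was at 64.8 and 66.5 CPM in KO and at 50.8 and 44 CPM with NAC (log2 fold change -0.47, adjusted p = 0.00204), and POLG, the catalytic subunit of the mitochondrial DNA polymerase, was at 71.0 and 65.1 CPM in KO and at 58.7 and 46.9 CPM with NAC (-0.36, adjusted p = 0.0224). POLG2, its accessory subunit, rose by 0.82 (adjusted p = 0.0045) and MTERF1 by 0.92 (adjusted p = 0.00108). TFAM, which packs mitochondrial DNA and starts its transcription, was at 118 and 121 CPM in KO and at 159 and 143 CPM in 5% O2, the 1 gene of the 9 that rose there (0.34, adjusted p = 0.0468). With that dependence taken out neither TWNK (-0.21, adjusted p = 0.107), POLG (0.19, adjusted p = 0.253), POLG2 (0.40, adjusted p = 0.122) nor MTERF1 (0.32, adjusted p = 0.181) passed with NAC, nor TFAM in 5% O2 (0.16, adjusted p = 0.327).

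Of the 5 antisense or divergent transcripts, MRPL20-AS1 and MRPS30-DT passed the filter on low counts, and neither changed at an adjusted p under 0.05 in any comparison. MRPL20-AS1 was at 16.3 and 15.8 CPM in KO and at 12.5 and 11.9 CPM with NAC (-0.40, adjusted p = 0.0506), whereas MRPL20, the gene it is named after, rose by 0.55 (adjusted p = 0.000244). The difference between them was not tested. MRPS30-DT held between 6 and 36 counts per library.

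Another gene started within 500 bases on the opposite strand for 18 of 69 member promoters (26.1%), against 20.5% of promoters of genes that passed the filter and 14.9% of all. MRPS30-DT, an antisense or divergent member, starts 154 bases from MRPS30. In 1 case the neighbour is itself a protein-coding member: MRPL46 and MRPS11 start 320 bases apart on chromosome 15. In 5% O2 vs KO MRPL46 stood at -0.12 and MRPS11 at 0.16, and neither passed. Both were higher with NAC than in KO. MRPL46 went from 22.3 and 24.6 CPM to 34.8 and 34.2 CPM (log2 fold change 0.56). MRPS11 went from 38.3 and 40.8 CPM to 47.9 and 56.5 CPM.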
